A study of Mus musculus with 20 samples.

Results

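The 2 lines of mouse embryonic stem cells in which Mettl3 was knocked out, KO1 and KO2, were compared through the places where only one of them had peaks of N6-methyladenosine (m6A). Peaks of the 4 knockout libraries were merged per strand where they overlapped by at least 1 bp, which gave 61142 regions. A region was called KO1-only when both KO1 libraries and neither KO2 library held a peak there, and KO2-only in the reverse case. There were 4002 KO1-only regions (6.55% of the 61142) and 6627 KO2-only regions (10.8%), 10629 in all, and 25094 regions (41.0%) had a peak in all 4 knockout libraries. Merging all 10 peak lists of the series gave 87498 regions.

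The series held 20 samples of C57BL/6 embryonic stem cells grown with LIF and the inhibitors CHIR99021 (of GSK3) and PD0325901 (of MEK). All groups shared this strain and medium, and the RNA of every sample came from the chromatin fraction and was depleted of ribosomal RNA. The immunoprecipitated groups used here were Mettl3_KO1, Mettl3_KO2, Ythdc1_cKO, Ythdc1_Control and Mettl3_Control, with 2 libraries each, and the 10 inputs were not analysed here. Where controls are named without more, the Mettl3_Control libraries are meant. The labels give neither the alleles of KO1 and KO2 nor whether each is a single clone, name no driver of the conditional Ythdc1 deletion, and leave out whether libraries of the same group stem from different cultures. The spread behind each p-value is therefore that between libraries and may be technical.

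METTL3 is the catalytic subunit of the methyltransferase that places m6A on RNA as it is transcribed, and it works in a complex with METTL14, WTAP and other proteins. In messenger RNA the mark is best known around stop codons, in 3' UTRs and in long internal exons, and chromatin-associated RNA also carries it in introns, in antisense transcripts and in non-coding RNA. YTHDC1 is the nuclear protein that binds m6A. In mouse embryonic stem cells the methyltransferase is known for limiting the lifetime of transcripts of pluripotency genes and for acting on RNA from repeats.

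Within a line, the libraries held much the same regions. The KO1 libraries shared 69.3% of the regions that either held, the KO2 libraries shared 72.5%, and the 4 pairs of a KO1 with a KO2 library shared 55.5% to 56.3%. The KO1 lists had 40959 and 41004 peaks, the KO2 lists 44496 and 42804, and the Mettl3 control lists 45292 and 46735. The number of reads per library is not given in the lists, but the deposited fold and p-value of a peak fix its background. The most common background on the plus strand was 16.28 and 16.49 reads in KO1 and 16.12 and 14.92 reads in KO2. In the Mettl3 controls it was 16.38 and 18.15 reads. The settings of the peak calling are not given here, so how closely this background follows the depth of a library is not known. On the m6A control RNA added from the enrichment kit, the fold enrichment was 12.5 and 12.3 in KO1, 22.5 and 23.3 in KO2, and 18.2 and 11.1 in the Mettl3 controls. These are values of separate lists, and their part in the results was not tested. Of 15 markers of embryonic stem cells, 12 and 11 had a peak in the KO1 libraries, 12 and 13 in the KO2 libraries and 12 and 12 in the Mettl3 controls. Of 10 fibroblast markers, which feeder cells would carry, each knockout library had a peak on 3 and each Mettl3 control library on 7, and Col1a1, Col1a2 and Col3a1 had none in the knockout libraries.

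Mettl3 itself was the targeted gene. It had 1 region in the 4 lists, in coding exon 3 of 11 (chr14:52299786-52300096, minus strand), and this region was KO2-only. The fold enrichment was 3.63 and 2.65 in the KO2 libraries and 6.15 and 5.06 in the Mettl3 controls, and neither KO1 library held a peak. The peak lists measure enriched RNA, not the protein or the deleted part, and so do not check the knockout. The summit of this region is shown as 101 bases of the GENCODE M21 transcript on GRCm38 (chr14:52299756-52299856, minus strand), with no GGAC, the core of the motif at which the METTL3 complex methylates most often, in the window.
Mettl3: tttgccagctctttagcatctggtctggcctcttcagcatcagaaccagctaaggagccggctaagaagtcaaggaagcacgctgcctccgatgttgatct

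The strongest line-only regions in coding exons are shown next, because in exons the sequence behind a peak can be read from the transcript. For each line these are the 3 strongest whose summit window of 101 bases lay within a single coding exon, with GGAC in capitals. They were chosen after the values were seen. The KO1-only windows lie in Ahnak2 (chr12:112772909-112773009, minus strand), which codes for a very large scaffold protein, in exon 1 of 11 of Rora (chr9:68653859-68653959, plus strand), a nuclear receptor, and in exon 2 of 21 of Fgd5 (chr6:91989211-91989311, plus strand), an exchange factor for small GTPases. Rora and Fgd5 have 1 GGAC each in the window and Ahnak2 has 0.
Ahnak2: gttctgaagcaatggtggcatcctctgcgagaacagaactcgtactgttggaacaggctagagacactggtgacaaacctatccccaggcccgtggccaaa
Rora: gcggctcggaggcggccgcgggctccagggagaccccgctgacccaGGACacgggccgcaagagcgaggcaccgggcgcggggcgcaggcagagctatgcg
Fgd5: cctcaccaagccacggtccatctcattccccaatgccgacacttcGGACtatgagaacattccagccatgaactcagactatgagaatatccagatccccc

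The KO2-only windows lie in Gm18336 (chrX:73396934-73397034, minus strand), a gene of 1 exon, in exon 6 of 7 of Rcsd1 (chr1:165655571-165655671, minus strand), which codes for a regulator of actin capping protein, and in exon 4 of 4 of Pramel6 (chr2:87510577-87510677, plus strand), a member of a leucine-rich repeat family expressed in preimplantation embryos. Gm18336 has 1 GGAC in the window, and Rcsd1 and Pramel6 have 0.
Gm18336: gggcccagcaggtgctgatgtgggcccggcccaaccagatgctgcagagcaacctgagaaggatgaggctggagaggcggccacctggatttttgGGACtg
Rcsd1: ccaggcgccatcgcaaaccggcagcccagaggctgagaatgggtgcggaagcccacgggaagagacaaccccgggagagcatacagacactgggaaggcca
Pramel6: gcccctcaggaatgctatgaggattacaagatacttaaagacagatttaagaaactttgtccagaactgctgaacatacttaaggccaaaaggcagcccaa

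The lines differed first in how much of the peak list lay in introns. Introns held 50.1% and 50.1% of the peaks in the KO1 libraries, against 39.4% and 39.4% in the KO2 libraries, and 38.2% and 38.2% in the Mettl3 controls. The difference between KO1 and KO2 was 10.7 percentage points, with SDs between the 2 libraries of a line of 0.0249 in KO1 and 0.00619 in KO2. Intergenic peaks went the other way, with 9.13% and 8.997% in KO1, 13.8% and 13.0% in KO2, and 15.7% and 15.8% in the controls. Antisense peaks, which lie over a gene but on its opposite strand, made up 4.91% and 4.78% in KO1, 7.79% and 7.54% in KO2, and 7.90% and 8.07% in the controls. The share in 3' UTRs was 9.04% and 8.95% in KO1, 10.6% and 10.8% in KO2, and 10.7% and 10.7% in the controls. In coding exons it was 20.02% and 20.4% in KO1, 21.2% and 22.0% in KO2, and 20.1% and 19.8% in the controls. The KO1 and KO2 libraries did not overlap in any of the 8 classes, and the mean of the KO2 libraries lay nearer than that of the KO1 libraries to the controls in every class but coding exons. With 2 libraries against 2 there are 6 splits, so the two-sided exact permutation test cannot go below p = 0.333, which is what it gave for each of the 8 classes (adjusted p = 0.333 each).

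**Figure D1:**
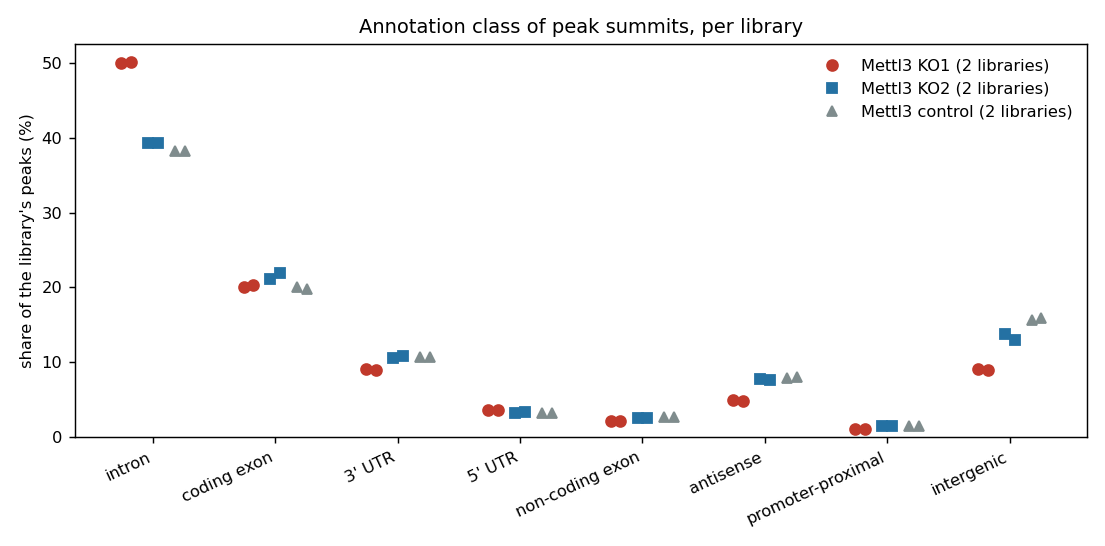
Share of each library's peaks (percent, y axis) whose summit lies in each annotation class (x axis), for the 2 libraries of Mettl3 KO1, KO2 and the Mettl3 control, one point per library. The KO1 libraries sit at 50.1% in introns against 39.4% in KO2, and below KO2 in the intergenic and antisense classes.

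The line-only regions, described here by class, differed in the same direction. Of the 4002 KO1-only regions, 3031 (75.7%, Wilson 95% interval 74.4 to 77.0) lay in introns, against 1696 of the 6627 KO2-only regions (25.6%, 24.6 to 26.7) and 42.8% of the regions in all 4 libraries. KO2-only regions were spread over intergenic sequence, coding exons, antisense positions and 3' UTRs. Intergenic regions made up 5.82% of the KO1-only and 24.3% of the KO2-only set, and antisense regions 3.10% and 14.9%. Coding exons made up 7.75% of the KO1-only and 15.8% of the KO2-only set, and 3' UTRs 2.35% and 11.8%. Read the other way, 10.5% of the 28891 intron regions of the 4 lists were KO1-only and 5.87% KO2-only, and of the 5371 regions in 3' UTRs 1.75% were KO1-only and 14.6% KO2-only. In 5' UTRs alone among exons the KO1-only share was the higher, with 7.14% KO1-only and 6.27% KO2-only of 1947 regions. The intervals cover counting error only, since regions of a library are not replicates.

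**Figure D2:**
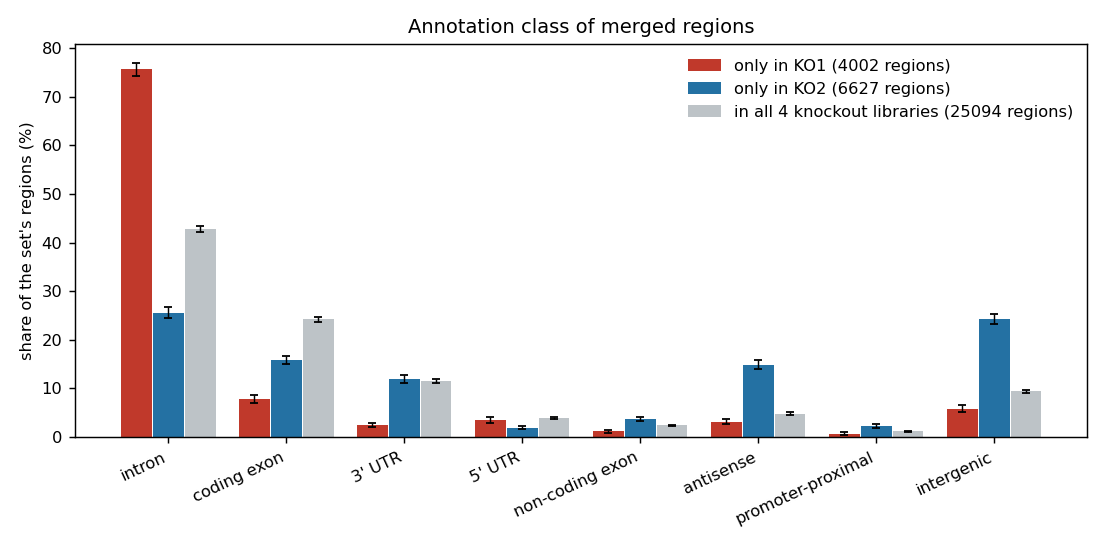
Share of regions (percent, y axis) in each annotation class (x axis) for KO1-only, KO2-only and shared regions, with Wilson 95% intervals for counting error as bars. Introns hold 75.7% of the KO1-only regions and 25.6% of the KO2-only regions.

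Both sets were made of weaker peaks than the shared regions, and their merged regions were narrower. The median fold enrichment, which is the authors' value for each peak, was 3.70 over the KO1-only and 4.37 over the KO2-only peaks, against 5.42 over the peaks of shared regions. The median widths of the merged regions were 244, 238 and 422 bp. A shared region joins peaks of 4 libraries and a line-only region those of 2, which by itself makes shared regions wider. Only 5 KO1-only and 97 KO2-only regions ranked at or above the 90th percentile of their lists in both libraries of the line, against 1590 shared regions in all 4. Just outside the rule, the 3437 regions in both KO1 libraries and 1 KO2 library had a median KO1 fold of 3.94, and the 7975 regions in 1 KO1 library and no KO2 library one of 3.37. On the KO2 side, the 3910 regions in both KO2 libraries and 1 KO1 library had a median KO2 fold of 4.31, and the 7543 in 1 KO2 library alone one of 3.71. Introns held 68.3% of the 3437 and 71.1% of the 7975 regions, and 37.4% of the 3910 and 33.5% of the 7543. A high intron share was thus not particular to the KO1-only set. Absence from a list means only that no peak was called there. The counts also move with the number of libraries required. Left without KO1 replicate 1 or 2, the rule gave 8053 and 8100 KO1-only regions, and left without KO2 replicate 1 or 2 it gave 9989 and 11117 KO2-only regions.

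The regions held by all 4 knockout libraries were compared in a measure the rule did not use, the rank of each region's fold enrichment among these regions within a library. Shared antisense regions had a median rank at the 46.1 and 45.4 percentile in the KO1 libraries, against 57.5 and 57.0 in the KO2 libraries. Shared intergenic regions lay at 50.02 and 49.03 in KO1 and at 59.6 and 58.6 in KO2, and promoter-proximal regions, within 2 kb upstream of a transcription start, at 55.0 and 55.1 in KO1 and 63.0 and 62.3 in KO2. Intron regions went the other way, at 47.8 and 47.5 in KO1 and 44.0 and 43.8 in KO2, and so did coding exons, at 55.0 and 55.9 in KO1 and 52.5 and 54.0 in KO2, although the share of peaks in coding exons was lower in KO1. Regions in 3' UTRs lay at 52.3 and 53.1 in KO1 and 57.3 and 57.5 in KO2. The lines did not overlap in 7 of the 8 classes (exact permutation test, p = 0.333, adjusted p = 0.381), and in 5' UTRs they did (p = 0.667).

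**Figure D3:**
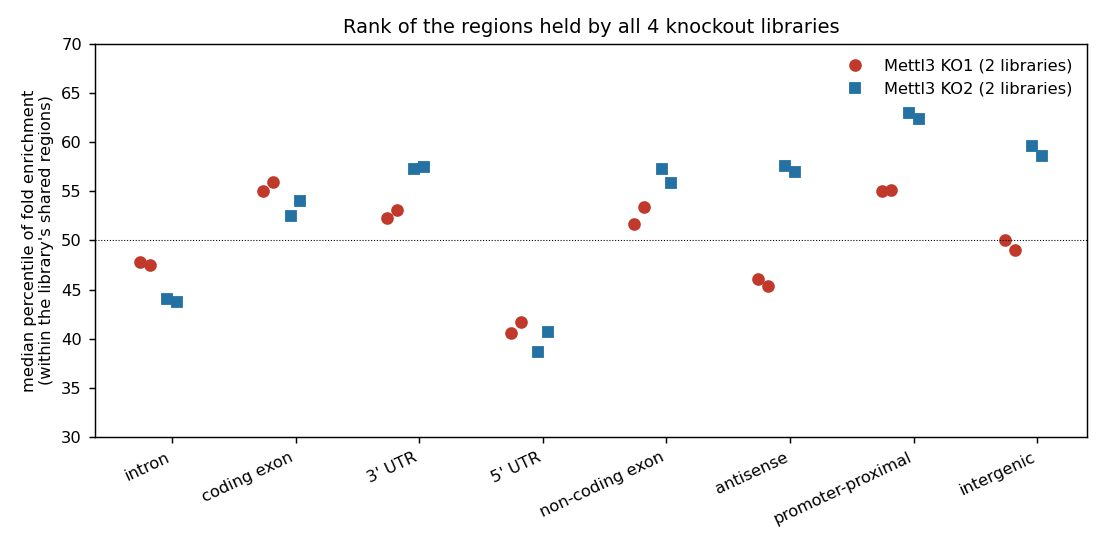
Median percentile of fold enrichment (y axis, not starting at 0, with 50 dotted) of the shared regions of each class (x axis), ranked among the shared regions of each of the 4 knockout libraries, one point per library. Antisense, promoter-proximal and intergenic regions rank lower in KO1 than in KO2, and intron regions rank higher.

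The genes around the intron regions also differed between the sets. The median length of the host gene was 87.8 kb for KO1-only and 41.2 kb for KO2-only intron regions, with 85.8 kb for shared ones, and the median position along the gene was 39.9%, 55.0% and 43.6% of its length from the start. KO1-only intron regions were thus in genes as long as those of shared intron regions, and it was the KO2-only ones that lay in shorter genes and further along them. Over all intron peaks of a library, the median gene length was 87.4 and 85.1 kb in KO1, 79.8 and 78.1 kb in KO2, and 90.9 and 89.8 kb in the Mettl3 controls. The median position was 43.1% and 42.6% in KO1, 45.6% and 45.4% in KO2, and 43.9% and 44.2% in the controls. For coding exons the median gene length was 34.0 and 34.2 kb in KO1, 29.6 and 29.6 kb in KO2, and 34.6 and 34.6 kb in the controls. In each of these measures the 2 lines did not overlap (exact permutation test, p = 0.333 each). Protein-coding genes of at least 300 kb had a region in 353 of 566 cases. Of 4051 regions in them, 453 (11.2%) were KO1-only and 213 (5.26%) KO2-only. Over all regions on the sense strand of a gene the shares were 7.51% and 8.05%. However, 88.1% of the 4051 regions lay in introns, and over intron regions of all genes 10.5% were KO1-only and 5.87% KO2-only. The shares in these genes were thus near those of introns as a class, and are not particular to very long genes.

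Outside genes, KO1-only regions lay more often just past a gene. Of 233 KO1-only intergenic regions, 121 (51.9%, 45.5 to 58.3) were within 10 kb downstream of a gene end on the same strand, against 361 of 1612 KO2-only ones (22.4%, 20.4 to 24.5) and 41.0% of shared ones. Among regions on the sense strand of a gene, 9 of 3620 KO1-only (0.249%) and 106 of 3884 KO2-only regions (2.73%) lay in processed pseudogenes, with 0.969% of shared regions. Genes for long intergenic non-coding RNA held 1.05% of the KO1-only and 2.94% of the KO2-only regions, with 1.44% of shared ones. Reads from a processed pseudogene can come from its parent gene, so these regions are uncertain in their place.

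Of the 4475 antisense regions of the 4 lists, 124 (2.77%) were KO1-only and 985 (22.0%) KO2-only, and 1202 (26.9%) were shared. In both sets a similar share lay over an exon of the other strand, 41.1% of KO1-only and 40.7% of KO2-only regions, with 39.9% of shared ones. The examples that follow were chosen after their values were seen. The strongest KO1-only region opposite Hnrnpdl, which codes for an RNA-binding protein (chr5:100038687-100038864, plus strand), had 7.0 and 7.66 in KO1, none in KO2, and 8.40 and 8.82 in the Mettl3 controls. Opposite Tlr4, the receptor for bacterial lipopolysaccharide, a KO2-only region (chr4:66898121-66898525, minus strand) had 15.5 and 15.2 in KO2 and 3.93 in 1 control. Regions opposite Gsdmc4, with 14.4 and 17.5 in KO2, and opposite Prkce, a protein kinase C gene, with 12.8 and 12.8 in KO2, had no peak in any other library.

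Libraries that the rule did not use held the 2 sets to different degrees. Both Mettl3 controls had a peak at 1060 KO1-only regions (26.5%, 25.1 to 27.9) and at 2594 KO2-only regions (39.1%, 38.0 to 40.3), and neither did at 2022 (50.5%) and 3155 (47.6%). Of the shared regions, 89.2% had a peak in both controls. The difference, KO1-only minus KO2-only, was -12.7 percentage points, and its size rests on requiring both libraries of a line. It was -0.653 and -1.01 points without KO2 replicate 1 or 2, -23.9 and -23.5 points without KO1 replicate 1 or 2, and -7.75 points with every list at the length of the shortest. The classes behaved differently. Intron regions had a peak in neither control in 55.6% of KO1-only and 58.0% of KO2-only cases, and in both in 20.5% and 28.8%. In 3' UTRs 57.4% of KO1-only and 47.4% of KO2-only regions were in both controls, and in intergenic sequence 39.5% and 48.4%.

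The Ythdc1 libraries set the sets further apart in introns. KO1-only intron regions had a peak in 15.3% and 16.2% of cases in the Ythdc1_cKO libraries and in 17.4% and 15.0% in the Ythdc1_Control libraries, and KO2-only intron regions in 32.0% and 32.7% in Ythdc1_cKO and in 44.9% and 43.2% in Ythdc1_Control. In exons, KO1-only regions were found in 48.5% and 50.7% of cases in Ythdc1_cKO and in 57.3% and 56.3% in Ythdc1_Control, and KO2-only regions in 48.9% and 48.6% in Ythdc1_cKO and in 66.9% and 65.8% in Ythdc1_Control. None of the 6 other libraries held 1331 KO1-only intron regions (43.9%) and 540 KO2-only intron regions (31.8%), against 2.98% of the shared intron regions. All 6 held 113 KO1-only (3.73%) and 233 KO2-only intron regions (13.7%). A fold enrichment cannot be compared between lists, so these are shares of regions with any peak.

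**Figure D4:**
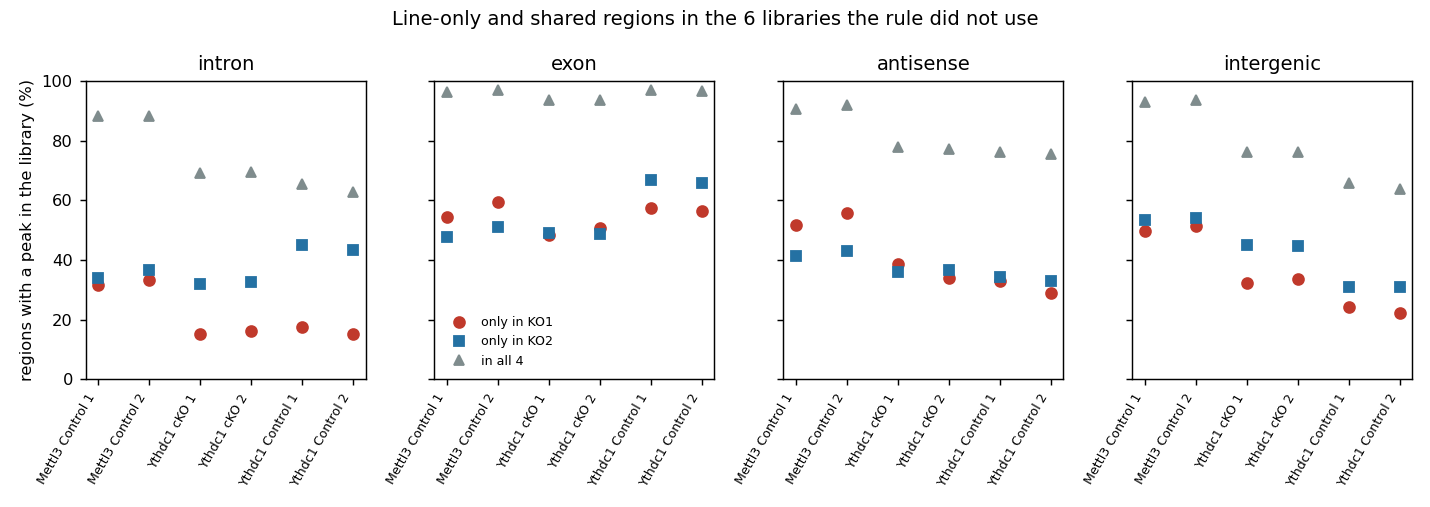
Share of KO1-only, KO2-only and shared regions (percent, y axis) with a peak in each of the 6 libraries the rule did not use (x axis), in panels for intron, exon, antisense and intergenic regions. In introns the KO1-only regions lie at 15.0% to 17.4% in the 4 Ythdc1 libraries and the KO2-only regions at 32.0% to 44.9%.

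Of 12340 genes with a region on their sense strand, 2408 (19.5%) had at least 1 KO1-only region, 3040 (24.6%) at least 1 KO2-only region, and 459 (3.72%) both. Every region was KO1-only in 174 genes (1.41%) and KO2-only in 754 genes (6.11%). Among the 8492 genes with 2 or more regions, every one was KO1-only in 20 (0.236%) and KO2-only in 93 (1.1%). In the genes with a KO1-only intron region, 60.1% of 4098 exon regions were shared by all 4 libraries and 4.54% were KO1-only, against 54.4% and 3.04% of the 19327 exon regions of all genes. In the genes with a KO2-only intron region, 52.6% of 2052 exon regions were shared and 15.1% were KO2-only, against 11.3% KO2-only over all genes.

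The strongest KO1-only regions lay mostly in introns. Cyyr1, which codes for a membrane protein, had its sole region in intron 2 of 3 (chr16:85515785-85516040, minus strand), with a fold of 11.3 and 11.5 in KO1, none in KO2, and 4.93 and 3.87 in the Mettl3 controls. Tspan5, a tetraspanin that guides the protease ADAM10, had a region in intron 1 of 7 (chr3:138758383-138758844, plus strand) with 11.4 and 9.43 in KO1 and 9.49 and 8.41 in the controls. Grb10, an imprinted adaptor that dampens insulin and growth factor signalling, had a region in intron 1 of 16 (chr11:11994360-11994739, minus strand) with 9.43 and 10.9 in KO1 and no peak in the controls or in any Ythdc1 library, while its other region was shared. Others among the strongest were in introns of Kpna3, Sept9, Hs3st4 and Fyn, in the first coding exon of Lcorl and in the 5' UTR of Nhs. Their KO1 folds ran from 7.66 to 9.55. Of these 9 regions, 7 had a peak in both controls, Lcorl in 1 control and Grb10 in none. The peaks at the Cyyr1 summit stood on 184 and 190 reads.

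Among the strongest KO2-only regions, Ffar2, a receptor for short-chain fatty acids, had its sole region in the 3' UTR (chr7:30818688-30819276, minus strand), with 15.1 and 19.8 in KO2, none in KO1, and 5.24 and 5.81 in the controls. Ankrd40 had a region in intron 1 of 4 (chr11:94333807-94334023, plus strand) with 14.7 and 18.2 in KO2 and 4.83 and 5.43 in the controls. Gm18336, whose sequence is shown above, had 1 region of 2191 bp with 14.3 and 15.6 in KO2 and 4.69 and 3.82 in the controls. Others were in introns of Lactbl1, Gm2808, Stk33 and Zfy1 and in coding exons of Gm2035, Rcsd1 and Pramel6. Lactbl1, Stk33 and the Y-linked zinc finger gene Zfy1 had no peak there in either Mettl3 control or in any Ythdc1 library. Pramel6 had 11.7 and 13.9 in KO2 and 9.89 and 7.78 in the controls, and both of its regions were KO2-only.

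Outside genes the strongest KO2-only region (chr2:28431270-28431947, plus strand) had 26.6 and 22.1 in KO2, none in KO1 and 3.13 in 1 control, and all 4 Ythdc1 libraries held a peak there. The nearest gene end before it on that strand was 201 kb away, that of Olfm1. On chromosome 19 a region (chr19:9512337-9512622, minus strand) had 15.5 and 16.4 in KO2, and one on chromosome 18 (chr18:68810850-68811123, minus strand) 21.7 and 15.8, both with no peak in any other library. The strongest intergenic KO1-only region (chr9:26385273-26385609, minus strand) lay 0.499 kb past the end of Gm48373 and had 6.998 and 7.28 in KO1, none in the controls, and a peak in 3 of the 4 Ythdc1 libraries. One past Zcchc10 (chr11:53337231-53337448, plus strand), 4.03 kb from its end, had 6.73 and 6.78 in KO1 and no peak in any other library. The third (chr6:84610961-84611256, minus strand), 7.36 kb past Exoc6b, had 6.69 and 6.37 in KO1 and 5.54 and 7.26 in the controls.

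The genes with the most KO1-only regions were long, except Ahnak2 with 30.5 kb. Exoc4, which codes for a subunit of the exocyst, had 17 KO1-only regions of 87, 0 KO2-only and 34 shared, over 725 kb. Fhit, a diadenosine triphosphatase gene of 1612 kb at a chromosomal fragile site in human, had 12 of 26 and 5 shared. Pitpnc1 had 11 of 24, Wwox 11 of 65, Rora 10 of 33, Smyd3 10 of 48, Ahnak2 9 of 14 and Gpc6 9 of 35. Of these 8 genes Smyd3 alone had KO2-only regions, 3 of them. Presence in the controls varied among them. Both Mettl3 controls held 8 of the 9 KO1-only regions of Ahnak2, 8 of 11 of Wwox and 6 of 9 of Gpc6, but 3 of 17 of Exoc4, 2 of 12 of Fhit and 1 of 11 of Pitpnc1. In Fhit 8 of the 12 were in neither control.

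Among KO2-only regions, Dpp6, which codes for an auxiliary subunit of potassium channels, had 10 of 22 regions, 0 KO1-only and 4 shared, and 8 of the 10 were in neither control. The pseudogene AW822252 had 8 of 10, Myh13, a myosin heavy chain of eye muscle, 8 of 14, and Acyp2, Ank2, Nudt9 and Sema5a 7 each. Airn, the imprinted non-coding RNA that represses Igf2r on the paternal chromosome, had 6 of 9, with folds from 2.38 to 4.90 in KO2. None of these 8 genes had a KO1-only region. For Airn 5 of the 6 and for Acyp2 5 of the 7 were in both Mettl3 controls, whereas all 8 of AW822252, 7 of 8 of Myh13 and 6 of 7 of Nudt9 were in neither.

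Some genes belonged wholly to one line. Nhs, whose human gene is mutated in Nance-Horan syndrome, had 4 regions, all KO1-only, with folds from 4.08 to 9.19 in the KO1 libraries. Its 5' UTR region (chrX:162158945-162159603, minus strand) had 9.19 and 8.54 in KO1, none in KO2, and 9.87 and 12.002 in the Mettl3 controls, and all 4 Ythdc1 libraries held it. Eif4g3, a translation initiation factor, and Pak1ip1 had 3 regions each, all KO1-only. Fosb, Fos, 9330159M07Rik, Evpl and Bcl6 had 2 each. On the KO2 side Nudt9, an ADP-ribose pyrophosphatase gene of 19.07 kb, had 7 regions in coding exon, introns and 3' UTR, with folds from 2.45 to 9.35 in KO2. Gm11427 had 6, Cldn34c1 had 4, and Liph, Slfn9, Zfp449, Fam111a and Cldn34c3 had 3 each, all KO2-only.

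Some line-only regions stood next to each other. A run was counted where neighbouring regions on 1 strand, at most 50 kb apart with no other region of the 4 lists between them, were only in the same line. Runs of 2 or more held 798 KO1-only regions (19.9%) and 1909 KO2-only regions (28.8%), and runs of 4 or more numbered 6 and 43. KO2-only regions were also the more numerous, 10.8% of all regions against 6.55%, which by itself gives them more neighbours of their own kind, so the counts do not show that they cluster more. Ephb2, an ephrin receptor, held the longest KO1-only run, with 5 intron regions over 24.8 kb (chr4:136695194-136719951, minus strand). Its KO1 folds ran from 4.05 to 8.52, and both controls held all 5. The longest KO2-only run had 8 intergenic regions over 32.1 kb on chromosome 18 (chr18:85619359-85651418, plus strand), of which 5 were in both controls. A run of 7 on chromosome 4 (chr4:54821565-54830947, plus strand) was intergenic and in neither control throughout, and Nudt9 held another run of 7. Cwc25, a splicing factor, had a run of 5 with KO2 folds from 2.61 to 8.95, and Tubg1, which codes for gamma-tubulin, a run of 4 with folds from 3.15 to 7.72, none of them in a control. Runs were defined, and these examples chosen, after the values were seen.

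The gene lists are described by their counts. Shares are of the list's regions on the sense strand, to be read beside 7.51% KO1-only and 8.05% KO2-only over all such regions. Of all 3620 KO1-only regions on the sense strand of a gene, 3031 lay in introns. Intron counts of KO1-only regions in the lists below are to be read beside that, and are not particular to a list. Over all genes, 3.04% of exon regions were KO1-only and 11.3% KO2-only, against 10.5% and 5.87% of intron regions. A list made mostly of exon regions is to be read beside the former shares. Introns held 4.76% of the 2-cell-like, 0% of the mesoderm and 93.3% of the germline regions, so 0 KO1-only regions in these small lists says little. Genes that mark 2-cell-like cells, a small fraction of such cultures with an expression programme of the early embryo, had 0 KO1-only and 9 KO2-only of 21 regions, 1 in each of Gm8300, Usp17lb, Usp17lc, Usp17le and Zscan4b to Zscan4f. All 9 were also in both Mettl3 controls. Gm8300 had 8.70 and 8.54 in KO2, none in KO1, and 7.67 and 10.1 in the controls, and Zscan4c, which acts on telomeres, 5.61 and 6.41 in KO2 and 7.38 and 8.25 in the controls. These genes are near-identical copies, and the reads of one can be counted at another.

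Mesoderm, trophoblast and germline genes had KO2-only regions, most of them in neither Mettl3 control. Of 5 regions in mesoderm genes 0 were KO1-only and 3 KO2-only, and those of Gsc, T and Twist1 were in neither Mettl3 control, although Gsc had a peak of 2.46 in 1 Ythdc1_Control library. T, or brachyury, had 4.97 and 5.03 in KO2 and Gsc 6.28 and 6.09. Of 23 regions in trophoblast genes 1 was KO1-only, in Tead4, and 3 were KO2-only, and those were 2 in Cdx2 and 1 in Krt18, none of them in a Mettl3 control. The Krt18 region had a peak in all 4 Ythdc1 libraries. Cdx2, a transcription factor of trophoblast, had 5.91 and 5.76 at its strongest in KO2. Of 15 regions in germline genes silenced by DNA methylation 0 were KO1-only and 5 KO2-only, in Hormad1, Smc1b, Rhox5 and Stk31. Neuroectoderm genes had 9 KO1-only and 2 KO2-only of 58 regions. Of the 9, 7 were in Ncam1, a neural adhesion gene of 297 kb, and 2 in Zfp521, and 8 of the 9 lay in introns. The 2 KO2-only regions lay in exons of Sox11 and Tubb3. Ncam1 held 37 of the 58 regions, so the counts give no direction for the list. Of 6 neuroectoderm markers, each knockout library had a peak on 2.

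Pluripotency genes had a KO1-only share near that over all sense-strand regions. Of 102 regions in 17 core pluripotency transcription factors, 8 (7.84%) were KO1-only, all in introns, and 2 (1.96%) KO2-only, both in 3' UTRs, while 63 were shared. Tcf7l1, the repressor of the Wnt pathway in these cells, held 4 of the 8, Nr5a2 held 2, and Zfp42 and Tfcp2l1 had 1 each. Nr5a2 had 4.63 and 5.29 at its strongest in KO1 no peak in KO2 or the Mettl3 controls, and 6.06 in 1 Ythdc1_Control library. Klf5 had 2.43 and 2.75 in its 3' UTR in KO2. Among 50 regions in stem cell-restricted markers 4 were KO1-only and 4 KO2-only, and Dppa3, a maternal factor, had 8.15 and 6.60 in KO2 at its sole region, none in KO1 and none in the controls.

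Genes that respond at once to growth signals split between the lines. The medium held a MEK inhibitor, which acts on this pathway. Of 55 regions in immediate early and MAPK feedback genes, 9 were KO1-only and 7 KO2-only. Fosb and Fos, the AP-1 subunits, had 2 regions each, all KO1-only and all in both controls. Fosb had 8.45 and 7.52 in its 5' UTR in KO1, none in KO2, and 13.9 and 13.8 in the controls, and Fos had 8.12 and 6.69 in its 3' UTR in KO1 and 11.9 and 8.63 in the controls. Egr1, a zinc finger factor of the same response, had 1 KO1-only region in its 3' UTR and 3 more on its opposite strand, the strongest with 11.3 and 9.50 in KO1 and 10.2 and 8.07 in the controls. Atf3, a stress-induced factor, had 2 KO2-only regions, with 5.30 and 7.02 at its strongest in KO2 and 9.26 and 10.2 in the controls. The phosphatase genes Dusp5 and Dusp4, which feed back on MAPK signalling, had 3 and 1, and Ier3 had 1.

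Imprinted genes had line-only regions on both sides. In 137 regions of imprinted and chromatin-bound non-coding RNAs 6 were KO1-only and 14 KO2-only. Airn held 6 of the 14, Kcnq1ot1 and Meg3 held 2 each, and H19 had 5.36 and 4.37 in KO2 at its sole region. In 96 regions of imprinted protein-coding genes 8 were KO1-only and 12 KO2-only. Trappc9 held 4 of the KO1-only regions, and Dio3, Ndn, Mkrn3 and Rtl1 each had 1 region, which was KO2-only. Rtl1, a retrotransposon-derived gene of the placenta, had 8.004 and 5.89 in KO2 and 5.58 and 7.13 in the controls.

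The 49 regions of m6A writer genes had 4 KO1-only, in Cbll1, Zc3h13 and Wtap, and 5 KO2-only, in Zcchc4, Wtap, Virma and Mettl3. Cbll1, which codes for the writer subunit HAKAI, had 6.75 and 6.23 in KO1 in intron 4. Of 97 regions in reader and eraser genes 4 were KO1-only and 9 KO2-only. Fmr1, whose protein binds m6A, held 3 of the 9, with 6.78 and 8.10 at its strongest in KO2. All 7 regions of Ythdc1 were shared. H3K9 methylation genes had 7 KO1-only (6.31%) and 1 KO2-only (0.901%) of 111 regions, with the KO1-only ones in Atrx, Ehmt2, Atf7ip, Mphosph8, Ehmt1 and Suv39h1. Polycomb genes had 5 KO1-only and 8 KO2-only of 120, and Cbx8, a reader of H3K27 methylation, had 6.96 and 7.61 in KO2 and 4.08 and 3.82 in the controls. The counts, KO1-only before KO2-only, were for CHD and SWI/SNF remodelers 18, all in introns, and 10 of 280, DNA methylation genes 4 and 7 of 89, and nuclear RNA decay genes 7 and 4 of 101.

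Of the signalling lists, LIF and STAT3 pathway genes had 6 KO1-only and 6 KO2-only of 72 regions. All 6 KO1-only ones lay in introns and in neither control, such as Grb2 with 4.75 and 4.33 in KO1, and Jak1, the kinase of the receptor, had 5.60 and 6.75 in its 3' UTR in KO2 and 4.202 and 4.26 in the controls. Wnt pathway genes had 9 and 10 of 160, and all 9 KO1-only ones were intronic. Nodal, activin and BMP genes had 5 and 7 of 110. Smad1, a BMP effector, had both kinds, with 4.62 and 4.75 in KO1 in intron 2 and 7.82 and 9.54 in KO2 in its 3' UTR. Genes of the p53 response had 4 and 1 of 112.

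In the remaining lists, ribosomal protein genes had 3 KO1-only and 12 KO2-only of 81 regions, and none of either kind had a peak in a Mettl3 control. Rpsa had 2.66 and 2.76 and Rpl15 3.12 and 2.99 in KO2. Processed copies of these genes can take reads from one another. Y-linked genes had 2 and 6 of 31, and none of either kind had a peak in a Mettl3 control. Collagen and fibroblast matrix genes had 3 KO1-only, all in Col18a1, and 10 KO2-only of 65 regions. Col4a1 held 4 of the 10, with 6.19 and 11.1 at its strongest in KO2. Primitive endoderm genes had 1 and 2 of 36, histone genes 1 and 2 of 47, zinc finger genes 58 (4.77%) and 63 (5.18%) of 1216, and mitochondrially encoded genes 0 and 0 of 7.

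**Figure D5:**
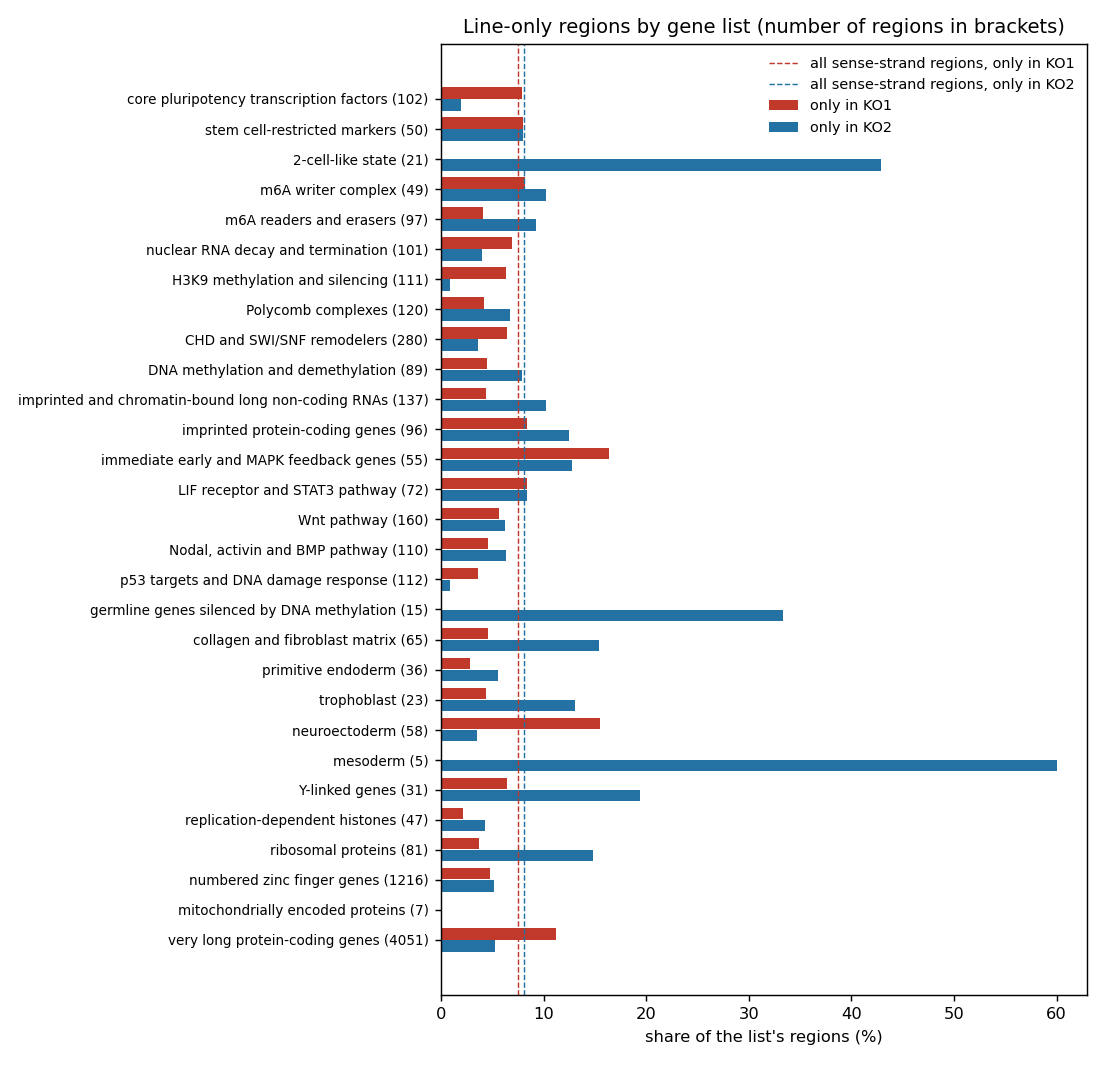
Share of each list's sense-strand regions (percent, x axis) that were KO1-only (upper bar) or KO2-only (lower bar), with the number of regions in brackets and the share over all sense-strand regions as dashed lines (7.51% and 8.05%). The 2-cell-like, germline and mesoderm lists have KO2-only regions and 0 KO1-only regions, on 21, 15 and 5 regions. The dashed lines mix classes: over all genes, 3.04% of exon regions are KO1-only and 11.3% KO2-only. On so few regions a count of 0 KO1-only says little.

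By chromosome, the lines differed most on chromosome 7 and the X chromosome. Chromosome 7 held 6.75% and 6.77% of the peaks in KO1, 7.40% and 7.54% in KO2, and 6.70% and 6.66% in the Mettl3 controls. The X chromosome held 2.90% and 2.89% in KO1, 3.40% and 3.37% in KO2, and 3.24% and 3.20% in the controls. Chromosome 4 went the other way, with 6.69% and 6.79% in KO1, 6.26% and 6.25% in KO2, and 6.57% and 6.59% in the controls. The lines did not overlap on any of these 3 (exact permutation test, p = 0.333 each, the smallest the design allows, and adjusted p = 0.438 over the 21 chromosomes). This was not particular to them, since the lines overlapped only on chromosomes 10, 11, 15, 16 and Y. Of the regions on chromosome 7, 5.03% were KO1-only and 14.2% KO2-only, and of those on X 4.93% and 15.3%. On chromosome 14 the shares were 8.76% and 8.49%, and on chromosome 6 they were 8.34% and 8.07%.

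Exon regions could be read for the letters GGAC within 50 bases of the summit, on the sense strand of the transcript. GGAC was in the window of 225 of 574 KO1-only exon regions (39.2%, 35.3 to 43.3), 1049 of 2145 KO2-only ones (48.9%, 46.8 to 51.0) and 50.9% of shared ones, against 33.1% of all 101-base windows tiled along transcripts of the same genes. In coding exons the share was 38.1% (32.8 to 43.6) of KO1-only, 47.3% (44.3 to 50.3) of KO2-only and 50.1% of shared regions, against 38.5% of tiled windows. In 3' UTRs it was 38.3%, 53.04% and 54.2%, against 25.3%. In 5' UTRs the order differed, with 44.0% (35.9 to 52.5) of KO1-only, 42.1% (33.4 to 51.3) of KO2-only and 51.7% of shared regions, against 40.4%. Over all coding exon peaks of a library the lines were close, with 49.0% and 48.1% in KO1, 49.1% and 49.1% in KO2, and 51.3% and 51.3% in the Mettl3 controls (exact permutation test of KO1 against KO2, p = 0.333). A match of 4 letters is a description and not a methylated site, and the genome sequence of intron and intergenic regions was not used here.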

How the data were processed

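Peak lists of m6A immunoprecipitations of chromatin-associated RNA were used. Per the labels' protocols, RNA was depleted of ribosomal RNA, mixed with control RNA, fragmented, immunoprecipitated and made into stranded libraries. The tools are MACS2, HISAT2 2.1.0, Trimmomatic 0.38 and CASAVA, with the build mm10, per the submitters' processing notes. How MACS2 was set and whether it read the inputs is not given in the sources used here. Each deposited list holds, for 1 library and per strand, a display score, the authors' fold enrichment (a ratio), and the −log10 of the p-value and q-value of each peak, and by their values were limited to 150 bp and a −log10 q of 2.00. Fold enrichment was used only to describe or rank peaks within a list.

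Libraries were grouped by title. Merging left out the 17 to 21 peaks per knockout library that lay on contigs other than the assembled chromosomes. The summit of a region's strongest peak was annotated with GENCODE M21 (GRCm38, 55450 genes, 81033 basic transcripts), taking the first that held of 3' UTR, coding exon and 5' UTR, then non-coding exon, then intron, and only after these antisense, promoter-proximal (2 kb) or intergenic. Named for each line were the 10 genes with the strongest line-only region (by the smaller percentile of fold in the 2 libraries), 8 with the most, 8 with every region in the line, the 3 strongest regions outside genes, up to 4 members per gene list, Mettl3 and Ythdc1. A gene that the rule names is not reported here. Of the 29 gene lists, each result is given in the text or its figure. The members and lists were chosen with earlier results of these data known, so no list was tested. Other list members named with counts only, the antisense and run examples and the sequences were added after the values were seen.

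Per-library shares were compared by two-sided exact permutation over 6 splits, with Benjamini-Hochberg adjustment over the classes. Wilson intervals at 95% cover counting error only. Reads at a summit were solved from the deposited fold and p-value, matching a whole number within 0.002 for at least 98.9% of peaks. The merging was tested on simulated lists of 5000 regions, where 400 of 400 KO1-only and 600 of 600 KO2-only regions were found. Other merging distances, overlaps, thresholds, list lengths, strand handling, transcript sets and left-out libraries were tried. Python 3.11.15, pandas 2.3.3, numpy 2.4.6 and scipy 1.17.1 were used.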

Additional observations from a re-analysis of the deposited data

Results flagged for a closer look

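The KO1 and KO2 libraries lay on opposite sides of both Mettl3 control libraries in 8 measures. These differences were not tested against the controls. The measures looked at were shares of 8 annotation classes, shares of 21 chromosomes, and gene length and position of intron and coding exon peaks. In no annotation class did the lines lie on opposite sides of both controls. The median position of intron peaks differed between KO1 and KO2 by -2.61 percent of the gene length, with KO1 nearer the start than the controls and KO2 further from it, and that of coding exon peaks by -3.74 percent. The share of peaks, KO1 minus KO2, differed by -0.273 percentage points on chromosome 1, by -0.177 on chromosome 5 and by -0.494 on the X chromosome. It differed by 0.484 points on chromosome 4, by 0.436 on chromosome 6 and by 0.286 on chromosome 17.

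The control RNA of the enrichment kit, which no comparison used, had a fold enrichment of 22.5 and 23.3 on the plus strand in the KO2 libraries, a number above the 18.2 and 11.1 of the Mettl3 control lists. The KO1 libraries had 12.5 and 12.3. Folds of separate lists are not on a shared scale. The part of this in the differences between the lines was not tested.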

How the results depend on the processing

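Of 47 recomputed values, 33 stayed within the limits set for a stable result, 14 moved and 0 changed direction. The 33 include those with the replicate number as a block, which could not move. Leaving out 1 knockout library gave 5544 to 8100 KO1-only regions and 8519 to 11117 KO2-only regions, since a line with 1 library asks for presence in 1 list. The intron share of KO1-only minus KO2-only regions was then 44.5 to 45.4 percentage points, and the share with a peak in both Mettl3 controls -23.9 to -0.653 points. With 1 KO2 library left out, the counting interval of the latter difference included 0. With every list at the length of the shortest, 40959 peaks, these differences were 48.4 and -7.75 points, and the counts were 4721 KO1-only and 5786 KO2-only regions. The intron share of peaks per library, KO1 minus KO2, stayed between 10.5 and 10.9 points under the alternatives tried. With the replicate number as a block, the rule for regions and the mean difference stay the same by construction. The counts of 4002 and 6627 and the library difference of 10.7 points therefore could not change (exact sign-flip test, p = 0.5, the smallest 2 pairs allow). Libraries with the same number did not deviate together in presence (correlation across regions 0.0129). With 2 libraries per line this cannot decide whether the numbers mark a shared culture or day. The depth limits what absence means: the lowest solved read count at a summit was 32 to 38 per library and strand, over the knockout and Mettl3 control lists. The lists hold called peaks only, so a level below the threshold cannot be compared.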
